A study of Homo sapiens with 8 samples.

Results

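The regions described are 279 H3K27ac peaks of CFPAC1 cells that carried the mark without interferon on average over the 4 clones. They gained it within 2 hours of hIFNb in both control clones, and gained less or none in both clones carrying a guide against IRF1. They were chosen by their measured values: a mean normalised score over 12 in the 4 libraries without hIFNb, a response of at least 0.8 in control clones 1 and 4, and a response under 0.5 in IRF1-guide clones 11 and 13. A response is log2(score + 1) with hIFNb minus log2(score + 1) without it, within a clone, and the added 1 understates changes at low scores. The 279 members were 0.996% of the 28021 peaks with an untreated mean over 12 (called pre-marked) and part of a table of 31961 peaks. Some members passed that minimum only through the IRF1-guide clones. Without hIFNb the peak of EIF3G, for example, had 8 and 6 in control clones and 18 and 23 in IRF1-guide clones. All 8 libraries entered the choice, so the members' scores and the calls counted below are given as a description and not as evidence. The word "rise" stands for a response of at least 0.8.

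CFPAC1 is an established line of human pancreatic ductal adenocarcinoma, and each clone was isolated from infected cells by dilution. Control clones 1 and 4 were infected with the lentiCRISPRv2 plasmid with no guide named, and IRF1-guide clones 11 and 13 with that plasmid carrying wild-type Cas9 and a guide RNA against IRF1. Every clone was profiled in 1 library marked UT, taken here to mean untreated, and in 1 library after 2 hours of hIFNb, taken to be human interferon beta, which gives 4 groups of 2 libraries. The labels give the target of the guide and not the IRF1 protein level, and with 2 clones of each genotype an effect of the guide and a chance difference between clones cannot be told apart at a single peak.

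H3K27ac is the acetylation of lysine 27 of histone H3, laid down at active enhancers and promoters by the acetyltransferases p300 and CBP. Type I interferon signals through the receptor chains IFNAR1 and IFNAR2 and the kinases JAK1 and TYK2 to the ISGF3 complex, which holds IRF9 and binds elements built of repeated GAAA. IRF1 is a transcription factor of the same family that is itself induced by interferons and binds related elements at genes of antigen presentation, cell death and antiviral defence.

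Promoter sequence could be read for few members, because most lay away from gene starts. RefSeq windows of GRCh38.p14, which run from 250 bases before to 50 bases after the start of a coding gene, covered 35 starts inside 32 member peaks. The windows below show both kinds: 3 that hold letters resembling interferon elements, and 2 from members named further down that hold none. Each is written 5′ to 3′ on the strand of its gene, and capitals mark matches to AANNGAAA, to GAAA followed by any 2 bases and GAAA, or to TTCNNNGAA, searched on both strands.
CCDC71L, chromosome 7, 106661109 to 106661408, minus strand: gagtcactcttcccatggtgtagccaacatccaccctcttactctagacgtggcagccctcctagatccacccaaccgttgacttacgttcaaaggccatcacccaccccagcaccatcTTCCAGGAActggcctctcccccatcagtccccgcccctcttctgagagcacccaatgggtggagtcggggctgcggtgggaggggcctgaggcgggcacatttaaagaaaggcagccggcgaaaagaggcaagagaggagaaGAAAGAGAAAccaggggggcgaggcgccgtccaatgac
TRIM44, chromosome 11, 35662525 to 35662824, plus strand: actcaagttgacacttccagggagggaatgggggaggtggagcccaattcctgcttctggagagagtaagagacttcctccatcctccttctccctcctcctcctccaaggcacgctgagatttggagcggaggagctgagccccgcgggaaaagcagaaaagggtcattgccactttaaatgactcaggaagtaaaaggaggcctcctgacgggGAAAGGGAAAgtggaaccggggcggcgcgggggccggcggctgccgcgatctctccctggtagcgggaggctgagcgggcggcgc
CD38, chromosome 4, 15778078 to 15778377, plus strand: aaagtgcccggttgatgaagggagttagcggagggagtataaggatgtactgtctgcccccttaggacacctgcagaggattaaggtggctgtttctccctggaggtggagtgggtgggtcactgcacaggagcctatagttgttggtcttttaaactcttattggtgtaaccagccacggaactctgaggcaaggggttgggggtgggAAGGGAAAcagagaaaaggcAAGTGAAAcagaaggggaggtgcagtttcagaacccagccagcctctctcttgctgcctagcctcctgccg
FBXO7, chromosome 22, 32474561 to 32474860, plus strand: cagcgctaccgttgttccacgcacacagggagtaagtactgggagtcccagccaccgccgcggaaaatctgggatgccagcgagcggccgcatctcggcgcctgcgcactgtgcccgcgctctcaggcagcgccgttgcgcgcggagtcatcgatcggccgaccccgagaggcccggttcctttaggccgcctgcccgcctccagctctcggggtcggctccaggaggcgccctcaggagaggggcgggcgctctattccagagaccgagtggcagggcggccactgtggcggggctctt
BCL2L14, chromosome 12, 12070689 to 12070988, plus strand: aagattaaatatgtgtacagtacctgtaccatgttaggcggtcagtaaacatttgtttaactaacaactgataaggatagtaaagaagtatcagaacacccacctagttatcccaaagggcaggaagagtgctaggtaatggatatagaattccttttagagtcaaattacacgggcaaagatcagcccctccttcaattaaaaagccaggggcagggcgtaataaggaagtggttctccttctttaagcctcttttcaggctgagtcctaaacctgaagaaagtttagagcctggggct

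AANNGAAA was present in 6 of the 35 member windows (17.1%), namely those of CCDC71L, RPS6KA2, ELF1, TRIM44, CD38 and DPYSL3. It was present in 73 of 145 windows (50.3%) at the 499 pre-marked peaks that rose in all 4 clones, in 18% of the windows at pre-marked peaks, and in 19.3% of the 15843 coding promoters of the table. The run of GAAA, 2 bases and GAAA, each match of which also holds an AANNGAAA match, stood in 2 member windows (5.7%), CCDC71L and TRIM44, against 30.3% at peaks rising in all clones and 3.2% of all promoters. TTCNNNGAA, the letters bound by STAT dimers, stood in 1 member window (2.9%), that of CCDC71L, against 14.5% and 7%. TGANTCA, the letters of AP-1 sites, stood in 1 member window (2.9%), against 5.7% at pre-marked peaks and 6% of all promoters. GGGCGG, bound by SP1, stood in 22 (62.9%), under the 68% at pre-marked peaks and over the 57.4% of all promoters. A match is a run of letters and not a bound site, and the members away from gene starts were not scanned because no genome sequence was used here.

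In the libraries themselves, the median score of the 279 members went from 27 without hIFNb to 74 with it in control clone 1, and from 27 to 71 in control clone 4. In IRF1-guide clone 11 the median was 30 without and 33 with hIFNb, and in clone 13 it was 33 and 33. Only the libraries of the control clones with hIFNb stood high, and the other 6 medians lay between 27 and 33. The members were weak to middling peaks at the start: their untreated mean had a median of 29.5, 189 (67.7%) exceeded 20 and 31 (11.1%) exceeded 100. At 225 members (80.6%) both hIFNb scores of the control clones were above all other 6 scores, and 10.4% of pre-marked peaks had that order. The choice fixes much of that order, so nothing is read from it.

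**Figure D1:**
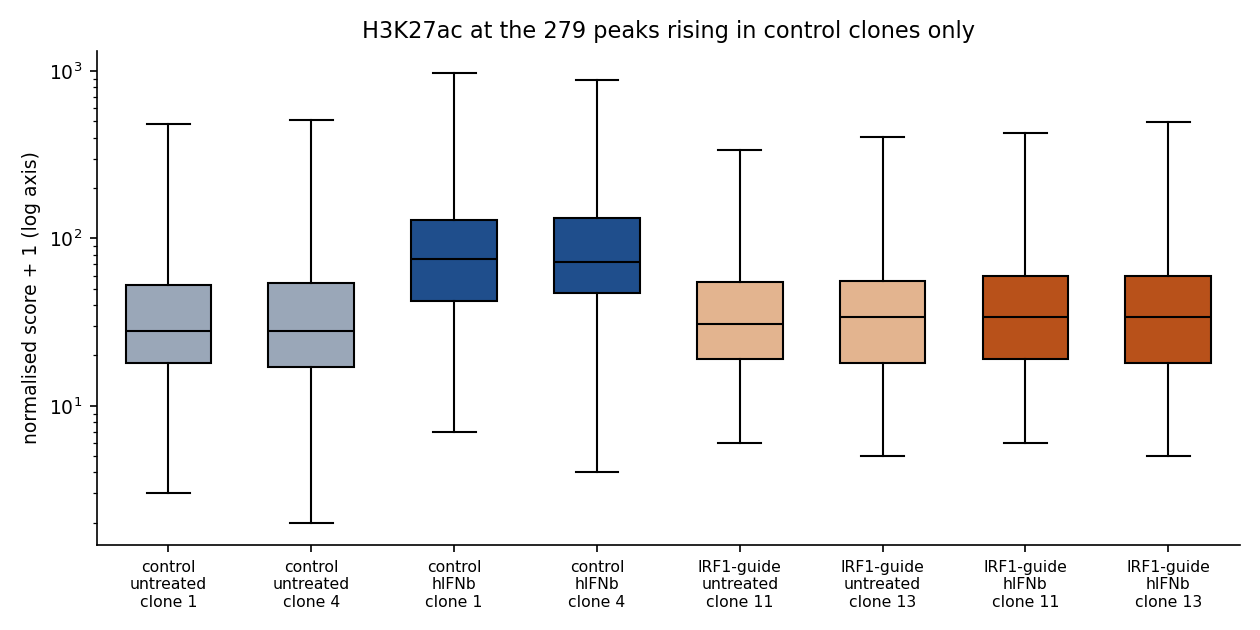
Normalised score plus 1 (log axis) of the 279 members in each of the 8 libraries. Boxes span the quartiles with the median as a line, and whiskers reach the lowest and highest member. The boxes of the control clones with hIFNb, with median scores of 74 and 71, lie above the other 6, whose medians run from 27 to 33.

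The responses behind those medians had a median of 1.13 in control clone 1 (0.81 to 3.96) and 1.13 in clone 4 (0.80 to 2.96), and of 0.17 in IRF1-guide clone 11 (-1.50 to 0.50) and 0.08 in clone 13 (-1.64 to 0.50). The responses of the control clones lay within 0.5 of each other at 226 members (81%) and more than 1 apart at 11, which the common limit of 0.8 on both favours. A rise of at least 1 in both control clones was met by 150 members, and of at least 2 by 10. In the IRF1-guide clones the direction was mixed, with both responses above 0 at 110 members (39.4%) and both below 0 at 46 (16.5%). The difference of the mean responses, control minus IRF1-guide, had a median of 1.20 and ran from 0.43 to 3.26, with 20 members over 2 and 94 under 1. Its standard error in the fit across all peaks without a block on clone had a median of 0.47 on the log2 scale (0.25 to 1.36), and of 0.36 over the 35 members of 10 kb or more.

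**Figure D2:**
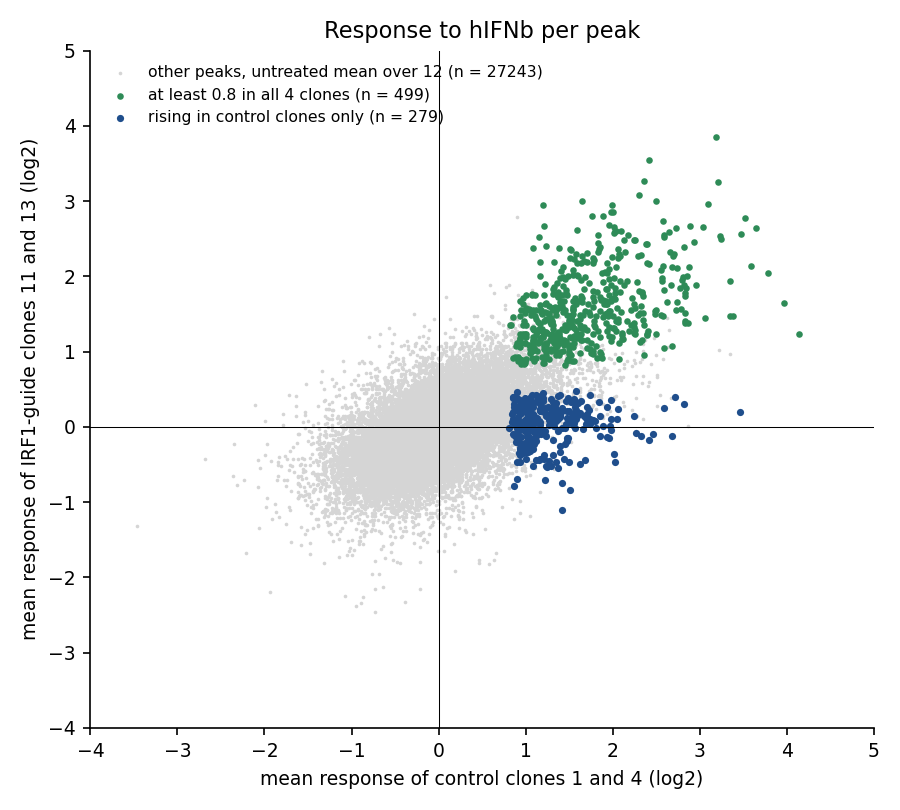
Mean response of the 2 control clones against that of the 2 IRF1-guide clones for the 28021 pre-marked peaks, both on the log2 scale. The 279 members lie at 0.81 to 3.46 on the control axis and -1.10 to 0.48 on the other, below the 499 peaks that rose in all 4 clones.

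How these peaks compare with all others was counted with limma (group means of log2(score + 1), empirical Bayes with a trend, Benjamini-Hochberg adjustment over 31961 peaks, adjusted p under 0.05). The response of the control clones was called as a rise at 105 members (37.6%) against 4.07% of all peaks. In the fit that blocks on clone the same call was made at 265 members against 13.4%. The difference of responses was called, higher in control clones, at 0 members and 0% of all peaks. An unadjusted p under 0.05 was reached at 177 members against 2.85% of all peaks, and the adjusted call with a block on clone at 74 members against 0.657%. The response of the IRF1-guide clones was called as a rise at 0 members against 1.2% of all peaks, and as a fall at 0 members against 0.025%. In either direction, an unadjusted p under 0.05 was reached at 2 members against 12.7% of all peaks, and the adjusted call with a block on clone at 3 members against 14.1%. The rule used each of these contrasts, so the counts describe the members and carry no evidence about them. Leaving out 1 control library in turn left its group with 1 library, and a rise in control clones was then called at fewer members and at fewer of all peaks.

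The same was counted between genotypes at each treatment. With hIFNb the IRF1-guide clones were called lower at 93 members (33.3%) against 2.19% of all peaks and higher at 0 members against 0.238%. The rule, which asks for a rise in control clones and none in IRF1-guide clones, favours lower values there, so nothing is read from the excess. Leaving out the hIFNb library of any 1 clone left its group with 1 library. Lower values were then called at fewer members and at fewer of all peaks, most of all without a control hIFNb library. Without hIFNb the IRF1-guide clones were called higher at 0 members and lower at 0 members, against 0% of all peaks in both directions. At an unadjusted p under 0.05 that comparison gave 65 members against 12% of all peaks, and no block on clone can be fitted there, since each clone holds a single genotype. In a principal component analysis of all peaks, every clone lay higher on the first axis with hIFNb than without it. Control clones 1 and 4 went from -8.4 to 98 and from -17.5 to 86.1. IRF1-guide clones 11 and 13 went from -65.2 to 7.9 and from -81.9 to -19. The control hIFNb libraries sat apart there (98 and 86.1, against -81.9 to 7.9 for the other 6). Every member's rise rests on those libraries, more than one type of sequencer is named in the protocol without saying which library it served, and the part that library preparation or sequencing had in the result was not tested.

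The limits were then applied in 2 of the clones and read in the other 2. Peaks were chosen by the same limits in 1 control and 1 IRF1-guide clone, and their responses were taken from the other clones. Choosing in clones 1 and 11 gave 923 peaks, of which 43.3% rose by at least 0.8 in clone 4, against 9.09% of all peaks with an untreated mean over 12 in the clones used. Over the 4 choices that share was 37.9% to 45.5% against 8.7% to 9.36%, so a rise in 1 control clone came with a rise in the other more often than among all peaks. Of the chosen peaks, 57.8% to 75.1% stayed under 0.5 in the IRF1-guide clone left out, against 83.8% to 86.5% of all peaks. The chosen peaks had all risen in a control clone, unlike all peaks, so that comparison cannot show how well the IRF1-guide limit carried over. Both limits were met in the clones left out by 20.9% to 30% of the chosen peaks, 24.7% ± 4.0 (SD of the 4 choices, which share libraries), against 3.53% to 4.72% of all. In each of the 4 choices, most of the peaks picked did not meet both limits in the other 2 clones. The 270 to 277 peaks that did so met the response limits in all 4 clones, as the 279 members do. The share is thus drawn from the values that define the members and is no separate evidence about them.

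**Figure D3:**
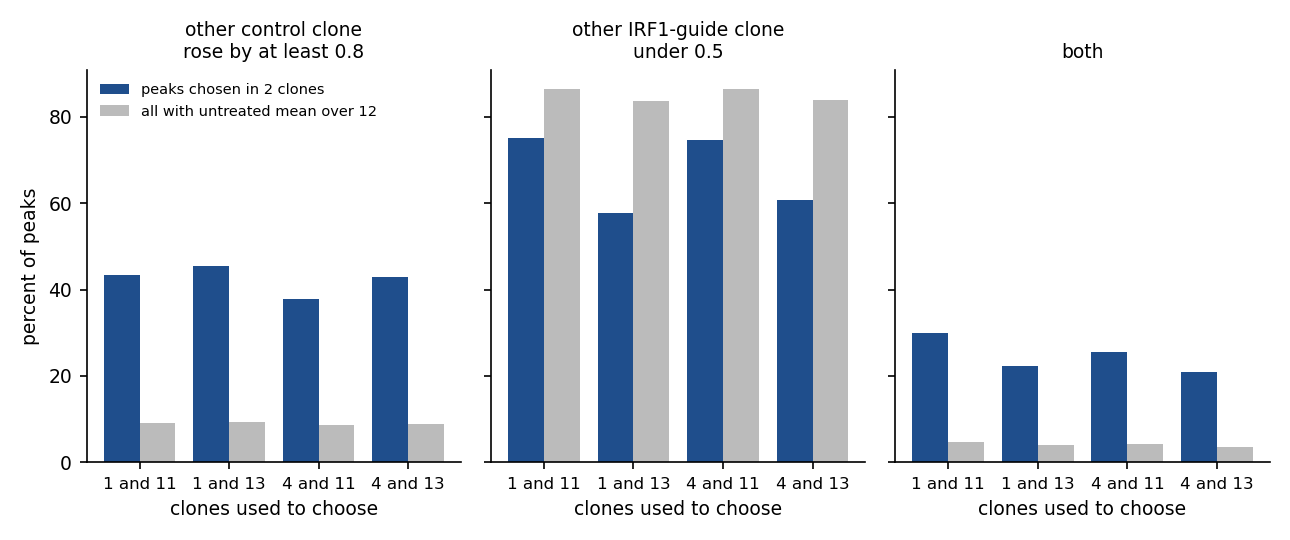
Percent of peaks chosen in 1 control and 1 IRF1-guide clone (blue) that met each limit in the 2 clones not used, beside all peaks with an untreated mean over 12 (grey). Each x label names the control and the IRF1-guide clone used to choose. Blue exceeds grey for a rise in the other control clone (43.3%, 45.5%, 37.9% and 43.0%) and lies under grey for the IRF1-guide limit. The blue peaks had all risen in a control clone, and the grey peaks were not chosen for such a rise.

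Of the 1420 pre-marked peaks that rose in both control clones, the members were 19.6%, the 499 peaks that rose by at least 0.8 in all 4 clones were 35.1%, and 642 met neither limit. With the genotypes exchanged, 57 of the 741 peaks that rose in both IRF1-guide clones (7.69%) stayed under 0.5 in both control clones. The clones differ in spread, and pre-marked peaks rose by at least 0.8 at 2435 and 2529 peaks in clones 1 and 4 against 2045 and 1585 in clones 11 and 13. The limits cut through a continuum. At 82 members the lower control response was under 0.9, and 115 peaks that met the other limits had it between 0.7 and 0.8. At 73 members the higher IRF1-guide response was 0.4 or more, and 86 other peaks had it between 0.5 and 0.6. At 40 members the untreated mean was under 15, and 202 other peaks failed only by an untreated mean of 12 or less.

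The largest difference among members belonged to a peak inside KCNIP1, which encodes a calcium-binding subunit of voltage-gated potassium channels (chromosome 5, 170613607 to 170623024 on GRCh38). Its scores were 12 and 23 without hIFNb and 202 and 186 with it in control clones 1 and 4, and 32 and 24 without and 33 and 31 with it in IRF1-guide clones 11 and 13. The control hIFNb scores stood clear of the other 6, and the difference of responses was 3.26. A peak 34.5 kb from the start of SPRY4, an inhibitor of receptor tyrosine kinase signalling, went from 34 and 54 to 329 and 253 in control clones and from 39 and 47 to 55 and 59 in IRF1-guide clones (chromosome 5, 142283755 to 142295729). Its groups without hIFNb overlapped, and the difference was 2.32. A peak 39.4 kb from the start of VCAN, which encodes the matrix proteoglycan versican, went from 11 and 12 to 68 and 64 in control clones and read 17 and 34 without and 18 and 25 with hIFNb in IRF1-guide clones. It started higher in the IRF1-guide clones, and the difference was 2.60. With 11 and 12 in the control clones, it passed the untreated minimum only through the IRF1-guide clones.

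Other members of large difference away from promoters had the same order of libraries. The peak at chromosome 10, 89076589 to 89089178, with no coding start within 50 kb, went from 25 and 38 to 210 and 239 in control clones and from 18 and 23 to 23 and 28 in IRF1-guide clones. The peak at chromosome 4, 176489612 to 176498953, also remote from coding starts, went from 26 and 30 to 150 and 166 and from 32 and 34 to 24 and 39. The peak in GPR39, a zinc-sensing receptor, went from 25 and 17 to 120 and 89 and from 18 and 24 to 24 and 16. In these 3 the control hIFNb scores exceeded the highest of the other 6 by more than 3-fold, as the scores themselves show. PRKACB, a catalytic subunit of protein kinase A, held a weaker one, with 20 and 13 going to 71 and 67 in control clones and 5 and 17 going to 7 and 6 in IRF1-guide clones. The remaining members named for size, at or near TMEM101, MTG1, GPRIN2, USP6NL and chromosome 2, 222786933 to 222791101, had differences of 2.34 to 2.52, and those of GPRIN2 and USP6NL rest on control hIFNb scores of 20 to 48.

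Coding promoters, with a coding start inside the peak or within 2 kb of it, made up 55 members (19.7%), against 33.4% of pre-marked peaks and 33.1% of the peaks rising in all clones. Their median difference was 1.00, against 1.23 in the 113 other members within 50 kb of a coding start and 1.22 in the 111 farther away. FGD2, an exchange factor for the GTPase CDC42, had the largest (chromosome 6, 37004135 to 37009261): 10 and 20 went to 110 and 84 in control clones, and 15 and 9 went to 16 and 7 in IRF1-guide clones, a difference of 2.79. F12, the gene of coagulation factor XII, went from 24 and 19 to 107 and 102 and from 13 and 14 to 15 and 15. In both, the control hIFNb scores were several times the rest, with no overlap.

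FRMD3 and AFAP1, which encode a FERM domain protein and an actin filament protein, had higher starting scores. At FRMD3 69 and 53 went to 178 and 150 in control clones, while 30 and 21 went to 15 and 14 in IRF1-guide clones, where the peak was already lower without hIFNb. At AFAP1 54 and 55 went to 185 and 172, and 50 and 68 went to 62 and 58. At CTSS, which encodes the lysosomal protease cathepsin S used in class II antigen processing, 22 and 48 went to 90 and 108, and 47 and 34 read 46 and 34 after hIFNb (chromosome 1, 150763778 to 150768033). The untreated scores of CTSS overlapped between genotypes, and the difference was 1.58. PAX9, a transcription factor gene, went from 25 and 58 to 106 and 124 and from 33 and 53 to 33 and 61. At FBXO7, an F-box protein gene whose window is printed above, 23 and 26 went to 79 and 71 while the IRF1-guide clones read 44 and 48 without and 58 and 50 with hIFNb. FBXO7 thus started higher in the IRF1-guide clones, as did GPATCH3, ZNF776 and EIF3G, whose 8 scores were all under 30. CCSER1 and ITGB7, the gene of integrin beta 7, complete the 12 promoters of largest difference, with control hIFNb scores of 25 to 40.

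**Figure D4:**
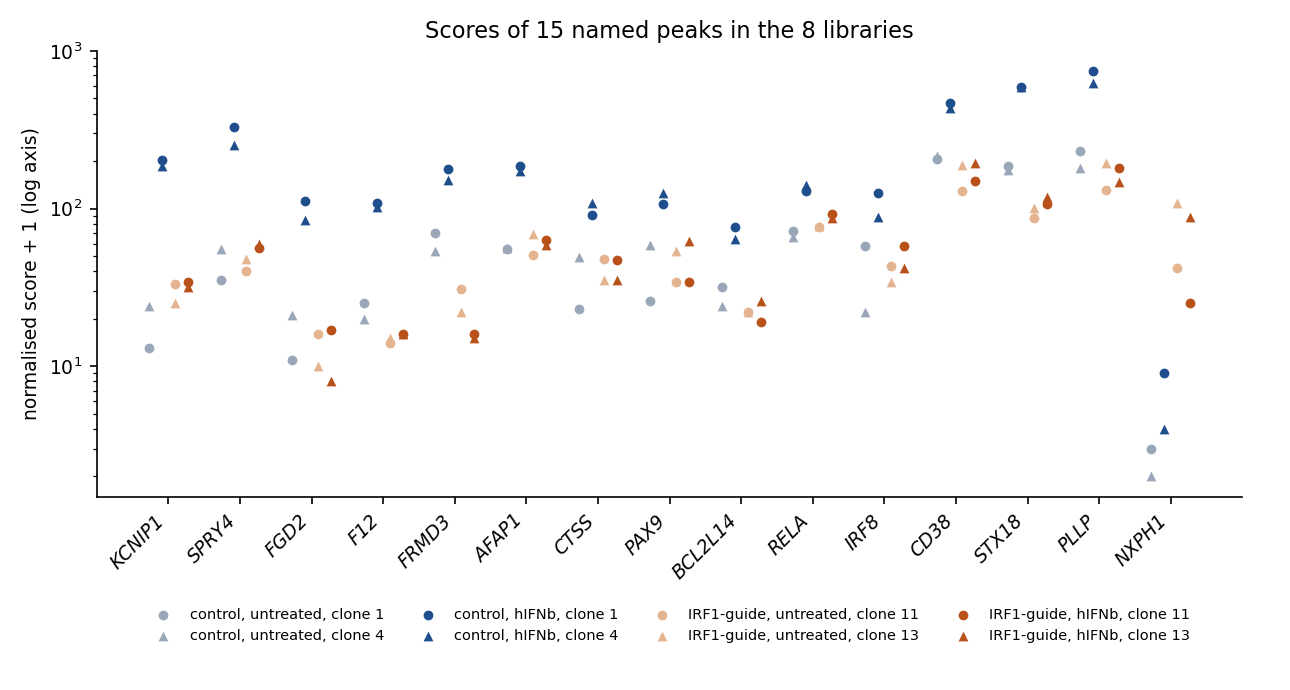
Scores plus 1 (log axis) of 15 named members in the 8 libraries, coloured by group, with circles for clones 1 and 11 and triangles for clones 4 and 13. Dark blue points, the control clones with hIFNb, are the highest of each column except NXPH1, where the IRF1-guide clones read 41 and 108 without hIFNb against 2 and 1 in control clones.

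The 6 members whose windows hold AANNGAAA were chosen for description after their values were seen. CD38, an enzyme that consumes NAD, lay in a 16359 bp peak with 205 and 216 going to 465 and 436 in control clones and 129 and 188 going to 149 and 195 in IRF1-guide clones. Its control hIFNb scores were above all others, and the difference was 0.96. TRIM44 had 15 and 23 going to 44 and 43, and 23 and 20 going to 27 and 23. CCDC71L had 31 and 31 going to 101 and 75, and 22 and 50 going to 28 and 64, so that IRF1-guide clone 13 approached control clone 4 after hIFNb. ELF1, an ETS family transcription factor, had 41 and 36 going to 83 and 80, and 18 and 28 going to 17 and 33. RPS6KA2, a kinase downstream of MAP kinases, had 75 and 69 going to 166 and 147, and 78 and 74 going to 76 and 82. DPYSL3, a gene of the dihydropyrimidinase-like family, had 9 and 13 going to 22 and 25, and 21 and 44 going to 28 and 45, with the IRF1-guide clones above the control clones after hIFNb and the smallest difference of the 6, 0.83.

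The members strongest without hIFNb were broad and had small differences. The highest, at chromosome 5, 38631836 to 38668866, had 483 and 508 going to 970 and 888 in control clones and 338 and 402 going to 379 and 495 in IRF1-guide clones, a difference of 0.67. The peak by IGFL1, a gene of a small growth factor-like family, had 432 and 411 going to 806 and 717, and 331 and 173 going to 426 and 232. Its difference of 0.46 was the smallest among the named members, and it became -0.008 without the untreated library of clone 11. In FNDC3B, 242 and 189 went to 549 and 422 while 220 and 269 went to 273 and 333. The other 3, at chromosome 17, 71321470 to 71345046, chromosome 5, 44873216 to 44888118, and near RCOR1, a corepressor gene, had differences of 0.82, 0.85 and 0.52. In all 6 the control hIFNb scores were the highest of the 8.

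Among broad members, 3 stood out when the scores were inspected. A 22931 bp peak 24.2 kb from the start of PLLP, the gene of plasmolipin, had 231 and 179 going to 745 and 626 in control clones, and 130 and 193 going to 181 and 146 in IRF1-guide clones. A 20309 bp peak in STX18, a syntaxin of the endoplasmic reticulum, had 186 and 174 going to 586 and 590, and 86 and 100 going to 106 and 118. A peak in RIN3, an exchange factor for RAB5, had 157 and 89 going to 744 and 211, and 175 and 107 going to 238 and 141. PLLP and STX18 had like values in both control clones, whereas control clone 4 at RIN3 stayed under IRF1-guide clone 11 after hIFNb.

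Members were counted over lists of genes whose coding start was the nearest within 50 kb of a peak. Over all linked pre-marked peaks 168 of 18518 (0.91%) were members and 341 rose in all clones, a share at which a list of 86 peaks or fewer would hold under 1 member. None of the 86 pre-marked peaks linked to interferon-stimulated genes was a member, and 41 of them rose in all 4 clones. None was a member among the 49 peaks of interferon signalling genes, the 45 of antigen presentation genes and the 13 of the GBP and APOL genes, of which 3, 7 and 4 rose in all clones. These counts of members are near the share over all linked peaks and are not a result about the lists. As a reference, ISG15, a ubiquitin-like interferon-stimulated gene, had 512 and 467 going to 1083 and 986 in control clones and 532 and 378 going to 1184 and 885 in IRF1-guide clones. The peak of IRF9, the DNA-binding part of ISGF3, had 210 and 139 going to 372 and 302, and 102 and 104 going to 346 and 333. These rose in all 4 clones, with differences of -0.11 and -0.74, and the IRF1 peak had -0.12, GAPDH -0.32 and ACTB 0.01.

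Members were found on some of the other lists, at 1 or 2 peaks a list. Over all linked pre-marked peaks 0.91% were members, and the counts here and in the next paragraph are not a result about the lists. IRF8, an interferon regulatory factor of immune cells, had a peak 14 kb from its start with 57 and 21 going to 125 and 87 in control clones, and 42 and 33 going to 57 and 41 in IRF1-guide clones. It was the 1 member among 16 peaks of interferon regulatory factor genes. BCL2L14, a BCL2 family gene, was the 1 member among 32 peaks of checkpoint and cell death genes, with 31 and 23 going to 75 and 63, and 21 and 21 going to 18 and 25. Its control hIFNb scores were more than 2 times the highest of the other 6, and the window printed for it holds none of the 3 interferon-like runs of letters. RELA, which encodes the p65 subunit of NF-kB, was the 1 member among 50 peaks of NF-kB and inflammatory genes, with 71 and 65 going to 128 and 140, and 75 and 77 going to 91 and 86.

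HMGA2, an architectural chromatin protein gene on the list of basal and mesenchymal genes, had a member peak with 19 and 17 going to 38 and 49 in control clones, and 16 and 14 read as 5 and 15 after hIFNb in IRF1-guide clones. ACSL4, a long-chain acyl-CoA synthetase, was the 1 member of 71 peaks of cholesterol and fatty acid genes: 108 and 134 went to 234 and 260, and 113 and 97 read 99 and 88. CCND3, a G1 cyclin, and GCG, the glucagon gene, gave the 1 member of 40 cell cycle and of 21 other-cell-type peaks, with differences of 1.29 and 1.71. At the share of 0.91% over all linked peaks, lists of 21 to 54 peaks would hold less than 1 member each, and nothing is read from the counts of 0 that follow. No member fell in the 52 peaks of AP-1 and immediate early genes, the 42 of chromatin acetylation, the 39 of ductal and endodermal factors, the 51 of epithelial surface genes, the 51 of glycolysis and the TCA cycle, the 54 of xenobiotic and retinoid genes or the 21 of housekeeping genes. Of the ductal markers, 7 of 10 had a peak over their start, with summed scores of 6218 to 7604 per library, against 1 of 9 immune, 1 of 4 endothelial, 1 of 7 fibroblast and 1 of 5 endocrine and acinar markers. The endocrine and acinar sum, from CPA1 alone, read 1147 and 815 without and 765 and 566 with hIFNb in control clones, and 860 and 981 without and 646 and 736 with it in IRF1-guide clones, lower with hIFNb in each clone. The immune sum, from CD68 alone, was 135 and 157 in control clones and 186 and 212 in IRF1-guide clones without hIFNb, and 189 to 307 with it, higher with hIFNb in each clone. The part of either in the members' values was not tested.

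Starting levels split the members into 3 kinds. At 159 (57%) the untreated means of the genotypes lay within 0.5 on the log2 scale, with median scores of 32 and 35 going to 83 and 80 in control clones and 33 and 37 going to 40 and 37 in IRF1-guide clones. At 70 (25.1%) the IRF1-guide clones started higher by 0.5 or more, with medians of 15 and 17 going to 38.5 and 44 in control clones and 31 and 33.5 read as 31.5 and 32.5 in IRF1-guide clones. In that class the genotypes were closest with hIFNb, where the median difference, IRF1-guide minus control, was -0.26, against 0.81 without it. At 50 (17.9%) the IRF1-guide clones started lower, with 39 and 31 going to 91 and 86.5, and 18 and 18 going to 19.5 and 21.5. Both IRF1-guide untreated scores exceeded both control ones at 89 members (31.9%), against 18% of pre-marked peaks, and lay under both at 65 (23.3%), against 22.2%. Since the untreated scores enter the responses, a low control score favours entry to the members, and nothing is read from those shares.

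The most extreme of the class that started higher was a peak 47.4 kb from the start of NXPH1, a neurexophilin gene, chosen after its values were seen: 2 and 1 went to 8 and 3 in control clones, while 41 and 108 read 24 and 88 in IRF1-guide clones. It passed the untreated minimum only through the IRF1-guide clones, and its control responses rest on scores under 10. VCAN, GPRIN2, GPATCH3, ZNF776, DPYSL3 and EIF3G, among others, also passed that minimum only through the IRF1-guide clones. Of the same class, EIF3G had 8 and 6 going to 16 and 27 against 18 and 23 going to 22 and 20, and a peak at chromosome 1, 228556647 to 228558130, had 18 and 16 going to 39 and 49 against 75 and 64 going to 85 and 64. In that last peak the IRF1-guide clones were higher with and without hIFNb. Across the members, the IRF1-guide mean with hIFNb was at or above the control mean at 20 (7.17%).

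The position of the members, which the rule did not use, is given by description only. A coding start lay inside 14.7% of members, against 30.1% of pre-marked peaks and 30.1% of peaks rising in all clones. The median distance from a member to the nearest coding start was 34.5 kb, against 22.4 kb over pre-marked peaks and 20.4 kb at peaks rising in all clones, and 39.8% of members were over 50 kb away, against 33.9% and 31.7%. The centre lay in the body of a coding gene at 57% of members and 57.7% of pre-marked peaks. Their median width was 4176 bp, close to the 4094 bp of pre-marked peaks and below the 6626 bp of peaks rising in all clones, and 5 members were 20 kb or wider. The 35 members of 10 kb or more had median scores of 119 and 131 going to 282 and 253 in control clones and 121 and 117 going to 149 and 123 in IRF1-guide clones. The 44 members under 2 kb went from 11 and 13 to 24 and 28 and read 18 and 18 without and 18 and 19 with hIFNb.

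Another member lay within 100 kb of 18 members (6.5%), against 4.0% of pre-marked peaks, and no window of 500 kb held more than 2. The closest of the 5 pairs taken first by the rule for named peaks spanned 57.5 kb of chromosome 10, at 8126768 to 8184284, where 1 member went from 148 and 182 to 313 and 336 in control clones and the other from 17 and 23 to 38 and 46. A pair in 463.8 kb of chromosome 1 held a peak in ATF6, a sensor of unfolded proteins, with 17 and 15 going to 58 and 49 against 25 and 16 read as 15 and 14, and one near SH2D1B with 26 and 62 going to 97 and 123 against 41 and 55 read as 43 and 52. The other 3 pairs, on chromosomes 1, 10 and 12, had differences of 0.77 to 1.52. Chromosome 5 held 27 members (9.7%, against 5.7% of pre-marked peaks), the highest number of any chromosome, followed by chromosome 1 with 22 and chromosome 6 with 21.

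A peak rising in all 4 clones lay within 100 kb of 6.1% of members, against 5.6% of pre-marked peaks and 22.2% of the peaks rising in all clones themselves. The nearest peaks on each side that were not members had a median mean response of 0.14 in control clones, against 0.01 around pre-marked peaks and 0.37 around peaks rising in all clones. That mean was 0.8 or more around 16.5% of members, against 8.5% and 30.1%. In the IRF1-guide clones the same neighbours had a median of 0.02, against 0.01 and 0.31. The neighbours were not used by the rule but come from the same libraries, and no test was made.

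**Figure D5:**
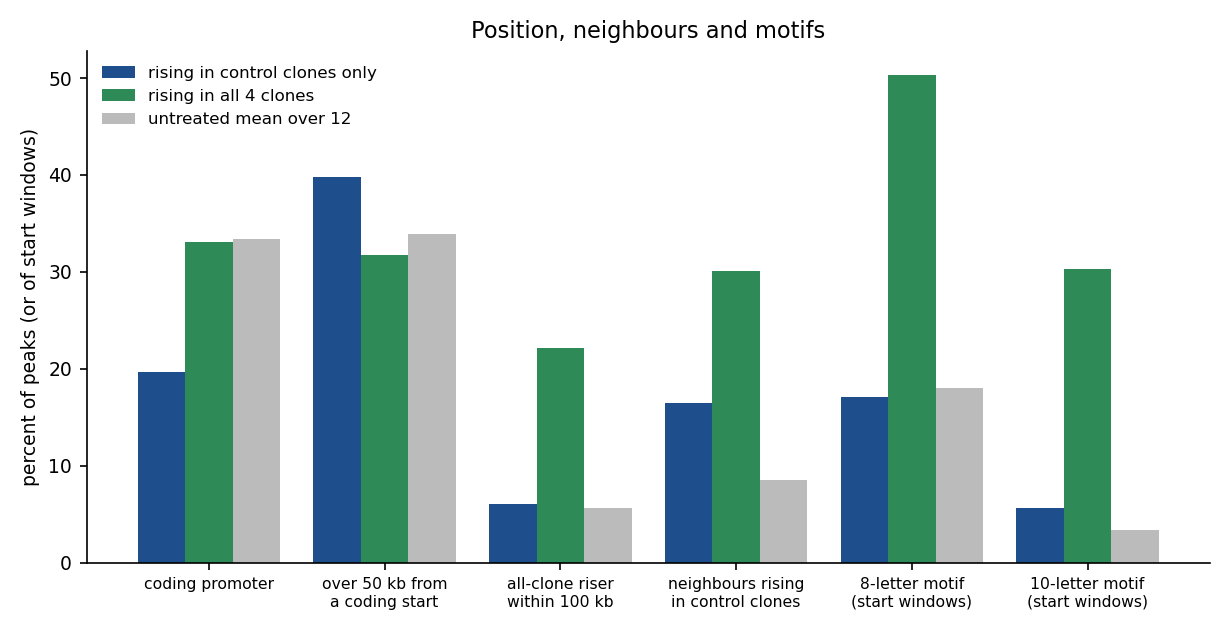
Percent of the 279 members (blue), of the 499 peaks rising in all 4 clones (green) and of pre-marked peaks (grey) with each feature on the x axis; the last 2 features are percents of start windows with the AANNGAAA run (8 letters) and the run of GAAA, 2 bases and GAAA (10 letters). The blue bars are at 19.7%, 39.8%, 6.1%, 16.5%, 17.1% and 5.7%, and the green motif bars at 50.3% and 30.3%.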

How the data were processed

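H3K27ac ChIP-seq used the Abcam antibody ab4729, per the labels. The submitters' processing notes name Bowtie2 and the build GRCh38 (hg38). The aligner version, peak caller and scaling were not given in the sources used here. For each peak the authors deposited a normalised score in every library, rounded to whole numbers. Score totals ran from 3277561 to 3460390 per library. The read depth is unknown, so no counting interval is given, and the number of clones limits the precision.

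Scores were analysed as log2(score + 1) in limma 3.58.1 (R 4.3.3), with a group-means model, empirical Bayes with a trend and Benjamini-Hochberg adjustment over all peaks. The fit was tested on simulated data with independent libraries and no clone effect, so that test does not cover the pairing by clone. The 2 libraries of a clone come from the same cell line, so clone pairs them: their deviations from the group means correlated at 0.44 in control and 0.39 in IRF1-guide clones. In the group-means model p-values measure the spread between the libraries of a group, in which differences between clones and between libraries cannot be separated. With the clone as a block, the levels of the clones are removed, and p-values measure the spread of the responses between clones of a genotype.

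Coding starts came from RefSeq promoter windows or, for 2658 genes, from the deposited names and distances. A peak was linked to the nearest coding start within 50 kb of its centre.

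The members and lists were chosen with earlier results of these data known. Named were the 12 promoters and 12 other members of largest difference, the 6 of highest untreated mean, the members of the 5 densest runs within 500 kb (all of 2 members, ties taken in order) and up to 4 per gene list, of which 1 is not reported here. PLLP, STX18, RIN3, CD38, TRIM44, CCDC71L, ELF1, RPS6KA2, DPYSL3, DNAJC7 and NXPH1 were added after their values were seen. Alternatives were pseudocounts of 0.5 and 5, a mean score of at least 20, median-ratio and quantile scaling, other limits of the rule, the clone as a block and each library left out.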

Additional observations from a re-analysis of the deposited data

Results flagged for a closer look

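At 11 of the named members both control clones rose and both IRF1-guide clones had responses below 0. Some of these responses were small, such as -0.19 and -0.14 at ACSL4. A fall in IRF1-guide clones was called at 0 members, against 0.025% of all peaks. The choice of members fixed the control side and kept the other under 0.5, so calls of the difference carry no evidence about these peaks. In the main fit it was called at 0 members and 0% of all peaks. With a block on clone it was called at 74 members against 0.657% of all peaks. The difference of mean responses (log2, control minus IRF1-guide) was 2.52 at GPRIN2, 2.36 at USP6NL, 2.17 at FRMD3, 2.12 at ATF6, 1.71 at GCG, 1.66 at GPATCH3, 1.59 at CCSER1, 1.29 at CCND3 and 1.19 at ACSL4. It was 1.81 at NXPH1 and 1.24 at DNAJC7, which were named after their values were seen. FRMD3, ACSL4 and DNAJC7, a heat shock cochaperone gene, had control hIFNb scores of 150 or more. At DNAJC7 148 and 144 went to 315 and 331 in control clones, and 91 and 136 read 83 and 129 in IRF1-guide clones. The other 8 had control hIFNb scores under 100.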

How the results depend on the processing

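The number of members was 279 and ran from 268 to 281 with pseudocounts of 0.5 and 5, median-ratio scaling and quantile normalisation, with 218 to 274 of the 279 kept. It was 189 with an untreated mean over 20, 481 with no minimum, 150 with a control rise of at least 1, and 400 to 828 with 1 clone left out of the rule. With the clone as a replicate block, which pairs the libraries of a clone, members called were 74 for the difference of responses, 265 for the control response and 3 for the IRF1-guide response, against 0, 105 and 0 without it. Leaving out 1 library gave 8 to 93 members for the control response, 0 to 95 for the IRF1-guide clones against control with hIFNb, and 0 for the other 3 contrasts. The share of peaks holding in the clones left out, 24.7%, was 29.3% with a pseudocount of 5, and was 24.3% to 27.7% in the other settings, all chosen after seeing the data; leaving out a clone leaves it no value. Leaving out 1 library put the difference at IGFL1 between -0.008 (without the untreated library of clone 11) and 0.924, in a fit that does not pair the libraries of a clone. Within IRF1-guide clones 11 and 13 the responses were 0.36 and 0.42, and the cause of the change was not tested. In 916 combinations of a setting with 1 of 66 named peaks, reference genes included, the difference moved by less than the SD between clones in 739. The depth is unknown, and 2 clones a genotype limit what can be read at single peaks.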
